A study of Mus musculus with 16 samples.

Results

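The mouse Irf8 locus was examined as a window of 85 kb on chromosome 8 (mm9, from 123250000 to 123335000) that holds the Irf8 gene, at about 123260000 to 123281000, and its downstream flank. The members are the regions of 4 deposited lists of differential H3K27ac that overlap this window, 48 of 273958 regions in all. They comprise 13 regions of the list of multipotent progenitors (MPP) and common dendritic cell progenitors (CDP), 24 of the list of CDP and classical dendritic cells (cDC), 5 of the list of CDP and plasmacytoid dendritic cells (pDC) and 6 of the list of cDC and pDC. The window was set by position and not by signal, though members and lists were chosen with earlier results of these data known. Distances are counted from 123260000 and are therefore approximate.

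H3K27ac, an acetylation of histone H3 found at active promoters and enhancers, was measured by chromatin immunoprecipitation and sequencing of sorted cells of C57BL/6 mice. MPP are early blood progenitors, CDP are committed to the dendritic cell lineage, cDC present antigen to T cells, and pDC secrete type I interferon. Each of the 4 cell types had 2 libraries, called first-listed and second-listed because the values carry no replicate number. No genotype or treatment is named for any group, and the sources used here give neither age nor sex nor the number of animals. Whether both libraries of a type are from separate animals is not stated in the labels, so p-values measure only the spread between these libraries, which may be technical. Each cell type is a bulk population, in which a lower signal from fewer acetylated cells and from less acetylation per cell cannot be told apart.

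IRF8 is a transcription factor of the interferon regulatory factor family that binds DNA mostly with partners such as PU.1 and BATF3. It is needed for the development of the cDC1 subset of cDC and is expressed strongly in pDC, where it acts on their maturation and function. In the literature the gene is known for a series of enhancers named by their distance in kb: -50, linked to PU.1, +32, bound by BATF3, +41, bound by E proteins, and +56, active in progenitors and monocytes. The -50 element lies outside the window. In RefSeq (GRCm38.p6, used here for gene order and sequence only), the next annotated genes downstream of Irf8 are the long non-coding RNAs Gm39266 and Gm33199, and the next upstream is the pseudogene Gm18709.

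The promoter is shown because a region of every list covers the Irf8 start. The sequence gives the 250 bases before the upstream RefSeq start (GRCm38.p6, chromosome 8 from 120736108 to 120736357, plus strand, credited to RefSeq), with capitals marking the CG dinucleotides, the sites of DNA methylation, which are dense in the promoters known as CpG islands.
Irf8 promoter: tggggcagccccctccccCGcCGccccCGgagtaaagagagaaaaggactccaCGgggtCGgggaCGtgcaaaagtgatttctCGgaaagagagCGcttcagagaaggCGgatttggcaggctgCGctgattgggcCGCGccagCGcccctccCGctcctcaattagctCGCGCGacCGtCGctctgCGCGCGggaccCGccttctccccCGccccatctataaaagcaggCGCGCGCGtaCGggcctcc
The stretch holds 29 CG dinucleotides, against a median of 6 over 32851 RefSeq promoters of the same length, and has a GC content of 67.2% against a median of 52.4%. Searched on both strands, CANNTG (an E-box, in 66.2% of promoters), GAGGAAGT (an ETS motif of the PU.1 type, 2.44%) and TGANTCA (AP-1, 6.75%) had no match in these bases, nor had the IRF motif searched (2.98%). A further RefSeq start lies 2281 bases downstream, and the 250 bases before it hold 2 CANNTG matches. A match is a description of letters only.

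Signals are whole numbers from the authors. Between lists the scaling of a library differed by a factor of 0.879 to 1.24, with cDC nearly equal in both of its lists, and region bounds differ, so signals were compared only within a list. Differences are of mean log2(signal + 1), with the standard error (SE) and the adjusted p of limma, fitted over every region of the list. The same libraries were used by the authors to call the regions, so these p-values are too small and serve to set a difference against the spread between libraries. Ratios are those of group means. The cell type labels were not checked against marker genes, since no mm9 gene annotation was at hand. Over all regions of a list, the median log2 difference of the second-listed from the first-listed library was 0.50 in cDC, -0.31 in MPP and 0.17 to 0.23 in CDP and pDC. The deposited values do not give a read depth, so the precision rests on the 2 libraries of a cell type.

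Between MPP and CDP the summed H3K27ac of the window did not differ beyond the spread of the libraries. Among 13 regions, 1 was called higher in CDP, at the Irf8 start, and 1 higher in MPP, around 53 kb. These counts are near the shares of the whole list called in each direction (8.42% and 11%) and do not set the window apart. Both calls depended on single libraries. Summed over 8.85 kb of listed regions, the MPP libraries had 3703 and 2722 and the CDP libraries 2500 and 4072. The ranges overlapped, and the log2 difference of CDP from MPP was 0.01 ± 0.42 (SE, n = 2 and 2; exact permutation p = 1). Of the 13 regions, 7 were listed by the authors as higher in CDP (45.7% of the list) and 6 as higher in MPP (54.3%). The libraries were apart in 5 regions with CDP higher (26.8% of the list) and in 3 with MPP higher (32.2%), and they overlapped in 5. The median log2 difference was 0.51 over the 13 regions and -0.11 over the list.

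The region over the start, from -0.2 to 1.75 kb (chromosome 8, 123259801 to 123261750), had 580 and 248 in MPP, compared with 750 and 1244 in CDP. Both CDP libraries lay above both MPP libraries, and the region rose 2.41-fold, a log2 difference of 1.35 ± 0.37 (SE, adjusted p = 0.0133). It was the 1 region of 13 called higher in CDP, where 8.42% of all regions of this list were called in that direction. The call was lost without the second-listed MPP library or without the second-listed CDP library.

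On the distal side, the region from 52.85 to 53.75 kb had 373 and 275 in MPP, compared with 87 and 150 in CDP. The groups did not overlap, and it fell by 1.48 on the log2 scale (SE 0.39, adjusted p = 0.0103), the 1 region of 13 called higher in MPP against 11% of the list. The call did not hold when either MPP library or the first-listed CDP library was left out, and leaving out the second-listed CDP library gave 2 such calls, the other being the neighbour over the +56 element. Over the +56 element, the region from 55.9 to 57.8 kb had 1485 and 1231 in MPP, compared with 585 and 1258 in CDP. The groups overlapped, and the log2 difference was -0.66 ± 0.33 (SE, adjusted p = 0.189).

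The other 10 regions of this list differed by log2 values of -0.84 to 1.08, and limma called none of them at an adjusted p of 0.05. One of these, at 11 to 11.4 kb in the gene, had an unadjusted p of 0.0421, with 63 and 60 in MPP, compared with 101 and 171 in CDP. At 15.75 to 16.5 kb, MPP had 282 and 204 against 148 and 159 in CDP, above both CDP libraries but with an adjusted p of 0.251. Close to the +32 element the list held 3 short regions between 31.15 and 33.1 kb, in all of which the libraries of MPP and CDP overlapped. No region of this list covered the +41 element, which does not show equal signal there.

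Within a library the scaling drops out, so places of the same library can be set against each other. Per kb, the region over +56 kb had 782 and 648 in the MPP libraries, whereas the region over the start had 297 and 127. In CDP these levels were 308 and 662 at +56 kb and 385 and 638 at the start. The ratio of the +56 region to the start was thus 2.63 and 5.09 in MPP, compared with 0.801 and 1.04 in CDP. Both MPP libraries had more H3K27ac per kb at +56 kb than at the start, while the CDP libraries lay on either side of equality. The order in CDP depends on the region bounds. In the CDP libraries this ratio was 1.27 and 1.41 in the list of CDP and cDC. It was 0.762 and 0.990 in the list of CDP and pDC. The groups did not overlap, at the smallest exact permutation p that 2 against 2 libraries allow (two-sided, p = 0.333). The authors listed the start as higher in CDP and the +56 region as higher in MPP. The direction of this contrast therefore follows from the listed directions and adds no separate support. The ratios within a library and the share of signal beyond 28 kb were chosen after the values were seen.

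**Figure D1:**
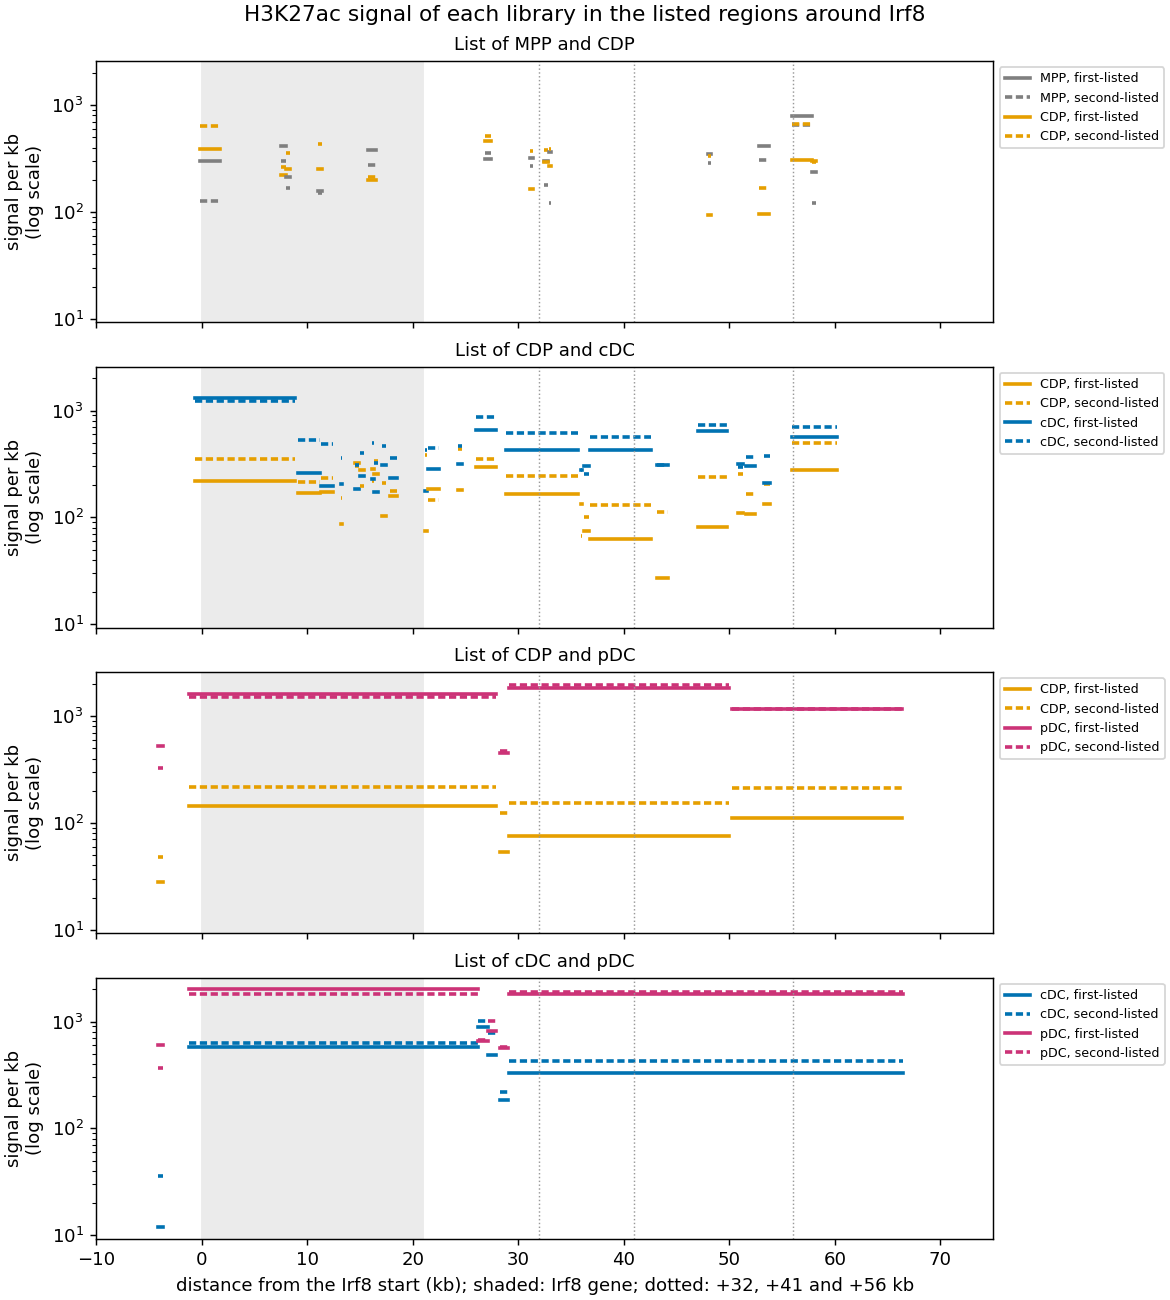
H3K27ac signal per kb (log scale) of each library in every listed region, by distance from the Irf8 start in kb, with 1 panel per list, solid lines for first-listed and dashed lines for second-listed libraries. In the pDC lists the window is filled by a few long regions in which both pDC libraries lie above the other cell type. MPP and CDP lie closer together, with CDP higher at the start and MPP higher from 52.85 to 53.75 kb.

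From CDP to cDC, H3K27ac rose at the Irf8 start and in 5 regions between 26 and 49.8 kb, with the highest ratios at the start and from 36.75 kb on, while the region over +56 kb did not pass the test. Summed over 42.1 kb of listed regions, the CDP libraries had 7243 and 11440 and the cDC libraries 26127 and 30347. Both cDC libraries lay above both CDP libraries, with a 3.02-fold higher mean and a log2 difference of 1.63 ± 0.35 (SE, n = 2 and 2; exact permutation p = 0.333, the smallest possible). Of the 24 regions, 22 were listed as higher in cDC (42.9% of the list) and 2 as higher in CDP (57.1%), and limma called 6 higher in cDC and none in CDP, where 7.64% and 14.4% of the list were called. These 6 regions held 65.9% of the listed length of the window, against 12.9% of the length of the whole list. At an unadjusted p under 0.05 there were 12 regions, none of them higher in CDP. The share of the whole list at that threshold was not counted, so this number has no background. The libraries were apart in 17 regions, all with cDC higher (22% of the list, and 36% with CDP higher), and overlapped in 7. The median log2 difference was 1.04 over the 24 regions and -0.19 over the list.

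The region from -0.6 to 8.8 kb, over the start and the first part of the gene (chromosome 8, 123259401 to 123268800), had 2057 and 3289 in CDP, compared with 12423 and 11558 in cDC. It rose 4.48-fold, a log2 difference of 2.20 ± 0.33 (SE, adjusted p = 8.49e-06), and both cDC libraries lay far above both CDP libraries. At 9.4 kb it was the 21st longest of 76865 regions. In the rest of the gene, 9 regions from 9.1 to 18.5 kb had log2 differences of -0.39 to 1.35 and none was called. Among them the only regions of the window listed as higher in CDP, at 14.5 to 14.9 kb and at 16.35 to 16.75 kb, had 129 and 121 against 74 and 123, and 101 and 134 against 69 and 129, with overlapping libraries.

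Just past the gene, 3 regions from 21.15 to 24.7 kb had log2 differences of 0.45 to 1.13 and were not called. The region from 26 to 27.85 kb had 545 and 650 in CDP, compared with 1220 and 1617 in cDC, and rose 2.37-fold (adjusted p = 0.0165). The region over the +32 element, from 28.85 to 35.7 kb (chromosome 8, 123288851 to 123295700), had 1141 and 1674 in CDP, compared with 2905 and 4267 in cDC. It rose 2.55-fold, a log2 difference of 1.35 ± 0.35 (SE, adjusted p = 0.00545). In both places the groups were apart.

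Over the +41 element, the region from 36.75 to 42.6 kb (chromosome 8, 123296751 to 123302600) had 369 and 769 in CDP, compared with 2509 and 3316 in cDC. It rose 5.11-fold, a log2 difference of 2.43 ± 0.39 (SE, adjusted p = 1.87e-05), the largest ratio of the window in this list. Beyond it, the region from 43.15 to 44.15 kb had 27 and 113 in CDP, compared with 312 and 307 in cDC, and rose 4.37-fold (adjusted p = 0.00247). The region from 47 to 49.8 kb had 229 and 671 against 1793 and 2029 and rose 4.24-fold (adjusted p = 0.000143). In these 3 regions each cDC library exceeded each CDP library, and the first-listed CDP library was the lowest. From 50.8 to 53.85 kb, 3 further regions had log2 differences of 0.77 to 1.33 and were not called, though the libraries were apart in each.

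Over the +56 element, the region from 55.95 to 60.15 kb had 1172 and 2067 in CDP, compared with 2388 and 2965 in cDC. Both cDC libraries were higher, with a 1.65-fold higher mean and a log2 difference of 0.77 ± 0.36 (SE, adjusted p = 0.127). It passed the test with equal autosomal totals (log2 difference 0.87) and with median-of-ratios size factors (0.94). Within a library, its level per kb was 1.27 and 1.41 times that of the region over the start in CDP and 0.430 and 0.574 times in cDC. Against the +56 region, the level of the +41 region was 0.226 and 0.267 in CDP and 0.754 and 0.803 in cDC. With the bounds of this list, the +56 region of CDP stood above the start and the +41 region, and the start of cDC stood above both elements. The order of +56 and the start in CDP depends on the bounds: in the list of CDP and pDC, whose regions are longer, the same ratio was 0.762 and 0.990 in the CDP libraries and 0.713 and 0.779 in pDC, and the groups overlapped. In the list of CDP and cDC, the groups did not overlap in +56 against the start or +41 against +56 (exact permutation p = 0.333 each). They overlapped in the level of the +41 region against the start. That ratio was 0.288 and 0.376 in CDP and 0.325 and 0.461 in cDC (exact permutation p = 0.667).

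The number of regions called higher in cDC depended on scaling and on single libraries. It was 11 when every library was scaled to the same autosomal total and 12 with median-of-ratios size factors. The share of the whole list called in the alternative fits was not counted. Whether these regions moved more than the list therefore cannot be told. Leaving out the first-listed CDP library gave 1 region, and leaving out the second-listed cDC library gave 3. The +41 region was the 1 region of the list called in all 9 alternative fits.

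**Figure D2:**
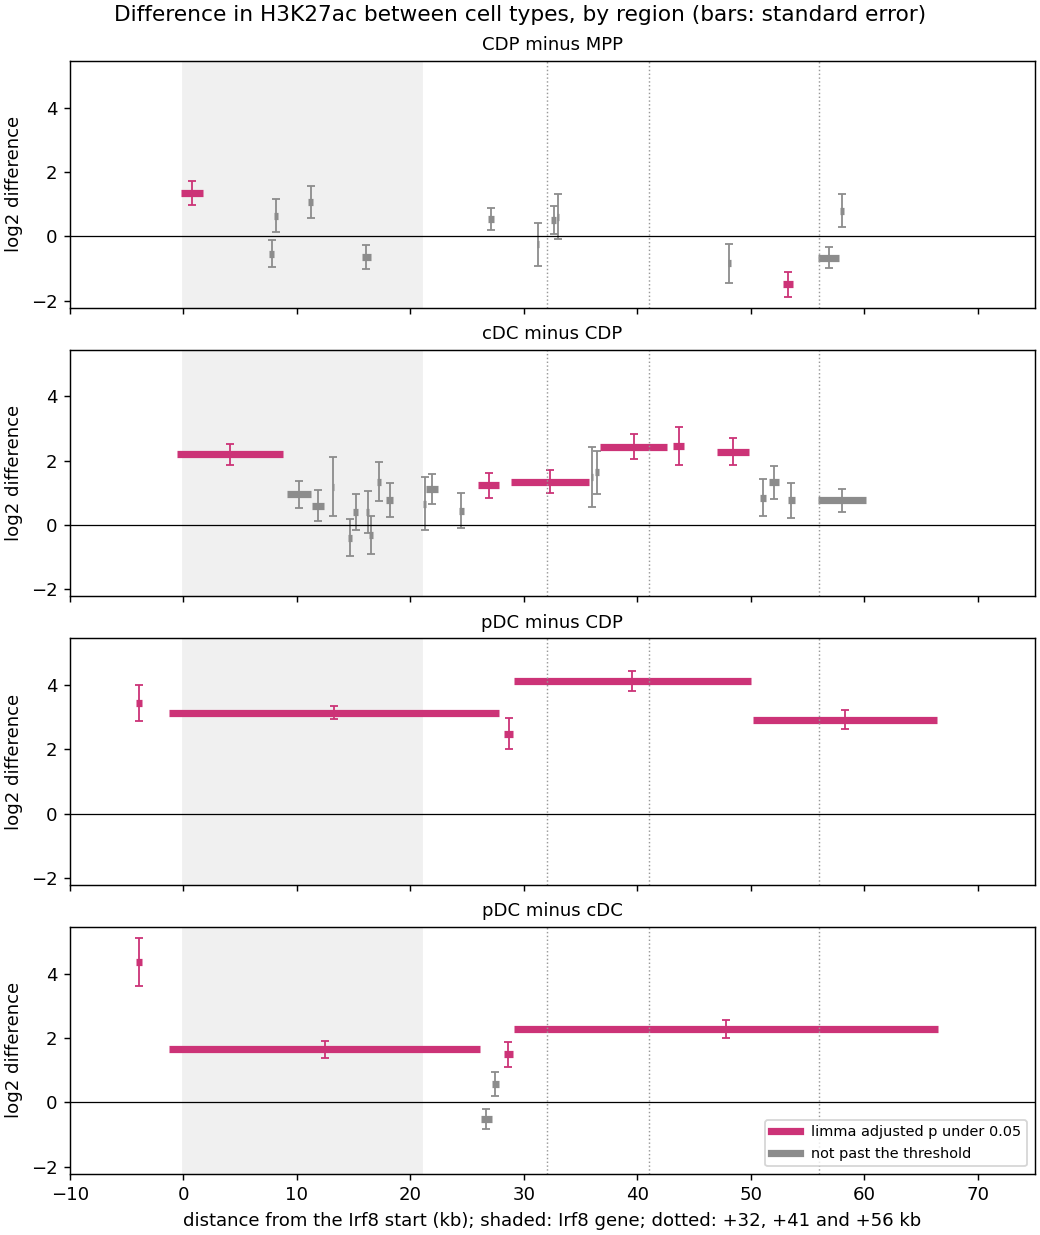
Log2 difference in H3K27ac between the cell types of each list (y axis; error bars are the limma SE) by distance from the Irf8 start in kb, with each thick line spanning 1 region and colour marking an adjusted p under 0.05. The rise from CDP is highest between about 37 and 50 kb in cDC and between 29.1 and 50 kb in pDC, and the MPP panel has 1 called region on each side of 0.

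From CDP to pDC, H3K27ac rose in 3 long regions and a short one between them, which cover nearly the whole stretch from the Irf8 start to 66.4 kb. Each region has a single value per library, so a rise at every place within the long regions is not shown. Summed over 67.5 kb of listed regions, which is 79.4% of the window, the CDP libraries had 7640 and 13121 and the pDC libraries 104952 and 103920. The pDC libraries nearly coincided and lay far above both CDP libraries, with a 10.1-fold higher mean and a log2 difference of 3.38 ± 0.39 (SE, n = 2 and 2; exact permutation p = 0.333, the smallest possible). All 5 regions were listed as higher in pDC (50.2% of the list, and 49.8% higher in CDP) and called so by limma, where 25.2% of the list were called higher in pDC and 19.7% in CDP. The libraries were apart in all 5, against 39.7% of the list with pDC higher and 37.8% with CDP higher. Without the first-listed pDC library 3 of the 5 were called. The median log2 difference was 3.14 over the 5 regions and 0.03 over the list.

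The region from -1.25 to 27.85 kb, over the start and the whole gene (chromosome 8, 123258751 to 123287850), was at 29.1 kb the longest of the 69958 regions of the list. It had 4223 and 6292 in CDP, compared with 47131 and 43724 in pDC, and rose 8.64-fold, a log2 difference of 3.14 ± 0.21 (SE, adjusted p = 0.000174). The region over the +32 and +41 elements, from 29.1 to 50 kb (chromosome 8, 123289101 to 123310000), had 1568 and 3239 in CDP, compared with 38494 and 40691 in pDC. It rose 16.5-fold, a log2 difference of 4.13 ± 0.32 (SE, adjusted p = 0.000231), and at 20.9 kb was the 5th longest of the list. The region over the +56 element, from 50.2 to 66.4 kb (chromosome 8, 123310201 to 123326400), had 1792 and 3467 in CDP, compared with 18700 and 18963 in pDC. It rose 7.16-fold, a log2 difference of 2.92 ± 0.29 (SE, adjusted p = 0.000519), and ranked 7th in length.

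The long pDC regions ranked higher in length than in signal per kb. Per kb, the pDC level of the middle region was 1842 and 1947, and its mean ranked 5481st in the list. Among the 465 regions of at least 5 kb, the ratios of the 3 long regions ranked 86th, 46th and 105th from the start outwards. The level per kb of the middle region was 0.678 and 0.724 times that of the +56 region in CDP and 1.60 and 1.66 times in pDC. Against the region over the gene, it was 0.517 and 0.717 times in CDP and 1.14 and 1.30 times in pDC. With these bounds, the middle of the downstream flank was the weakest of the 3 stretches in CDP and the strongest in pDC (exact permutation p = 0.333 for each ratio).

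Upstream of the gene, a separate short region from -4.15 to -3.65 kb was listed with the same bounds in both pDC lists and in no other. It had 14 and 24 in CDP, compared with 263 and 164 in pDC, and rose 10.7-fold (log2 difference 3.43 ± 0.56 SE, adjusted p = 0.0032). In the list of cDC and pDC it had 6 and 18 in cDC, compared with 304 and 183 in pDC, 18.8-fold higher in pDC (log2 difference 4.36 ± 0.74 SE, adjusted p = 0.00243). The remaining region of the CDP and pDC list, from 28.25 to 29.05 kb, had 43 and 99 in CDP, compared with 364 and 378 in pDC (5.17-fold, adjusted p = 0.00608).

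Between the mature cell types, pDC had more H3K27ac than cDC over the gene and from 28.25 to 66.45 kb, with the larger ratio in the long downstream region; 2 regions between 26.2 and 27.85 kb did not pass the test. Summed over 67.6 kb of listed regions, the cDC libraries had 29561 and 35075 and the pDC libraries 124468 and 121565. The groups did not overlap, with a 3.81-fold higher mean in pDC and a log2 difference of 1.93 ± 0.12 (SE, n = 2 and 2; exact permutation p = 0.333). Of the 6 regions, 5 were listed as higher in pDC (57% of the list) and 1 as higher in cDC (43%). limma called 4 higher in pDC and none in cDC, where 23.3% and 9.32% of the list were called. At an unadjusted p under 0.05 there were also 4 regions, and the share of the list at that threshold was not counted. The libraries were apart in all 6, 5 with pDC higher (41.8% of the list) and 1 with cDC higher (26%). The median log2 difference was 1.58 over the 6 regions and 0.22 over the list. Without either the first-listed or the second-listed pDC library, 1 of the 4 calls was left, that of the region at -4.15 kb. With equal autosomal totals the log2 difference of the sums was 1.45, with 4 regions called higher in pDC and 1 in cDC.

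The region from -1.25 to 26.15 kb (chromosome 8, 123258751 to 123286150) had 15865 and 17302 in cDC, compared with 54678 and 49526 in pDC, 3.14-fold higher in pDC (log2 difference 1.65 ± 0.26 SE, adjusted p = 0.00182). Everything from 29.15 to 66.45 kb (chromosome 8, 123289151 to 123326450) was listed as 1 region of 37.3 kb, the longest of the 66319 regions of the list. It had 12371 and 16085 in cDC, compared with 67865 and 70070 in pDC, 4.85-fold higher in pDC (log2 difference 2.29 ± 0.28 SE, adjusted p = 0.00052). A region of that length gives no separate values for the +32, +41 and +56 elements in this list.

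Between these stretches lay the 1 place of the window that was listed as higher in cDC. The region from 26.2 to 27.15 kb had 840 and 959 in cDC, compared with 626 and 638 in pDC. Both cDC libraries were higher, with a 1.42-fold higher mean, but the log2 difference of -0.51 ± 0.31 did not pass the test (SE, adjusted p = 0.256). It passed with equal autosomal totals, at -0.99 (adjusted p = 0.0099), and with median-of-ratios size factors, at -0.70 (adjusted p = 0.0322), and had an adjusted p of 0.114 to 0.73 without each library in turn. Its neighbour from 27.15 to 27.85 kb had 340 and 547 in cDC, compared with 572 and 712 in pDC (adjusted p = 0.296). The region from 28.25 to 29 kb had 139 and 164 against 423 and 436 and was 2.82-fold higher in pDC (adjusted p = 0.017). Per kb, the cDC level at 26.2 to 27.15 kb, 884 and 1009, was above that of the list's other regions in the window. The pDC level of 659 and 672 there was under those of both long regions. The long regions are averages over far longer stretches, so this order depends on the bounds. In the list of CDP and cDC, cDC had 1322 and 1230 per kb from -0.6 to 8.8 kb. In that list its level from 26 to 27.85 kb was lower, at 660 and 874.

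A rule that uses the authors' own p-value, asking for libraries apart, means that differ 2-fold or more and a −log10 p of 10 or more in the list, gave 1 region higher in CDP and 1 in MPP (8.49% and 11.1% of their list). It gave 9 regions higher in cDC than CDP and none lower (9.1% and 16.2%), 5 higher in pDC than CDP and none lower (23.5% and 17.7%), and 4 higher in pDC than cDC and none lower (25.3% and 11.2%).

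The share of the window's listed signal beyond 28 kb was also compared. In their list, MPP had 62.9% and 66.1% and CDP had 41.6% and 47.8%. In the list of CDP and cDC it was 44.4% and 50.1% against 40.6% and 45.2%, and the groups overlapped. It was 44.5% and 51.9% in CDP against 54.8% and 57.8% in pDC, and 42.3% and 46.3% in cDC against 54.9% and 58.0% in pDC. Both pDC libraries thus carried more of their signal downstream than both libraries of the cell type beside them (exact permutation p = 0.333 in each list). The regions behind these shares differ between lists, with 49.2% to 56.3% of their listed length lying beyond 28 kb.

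**Figure D3:**
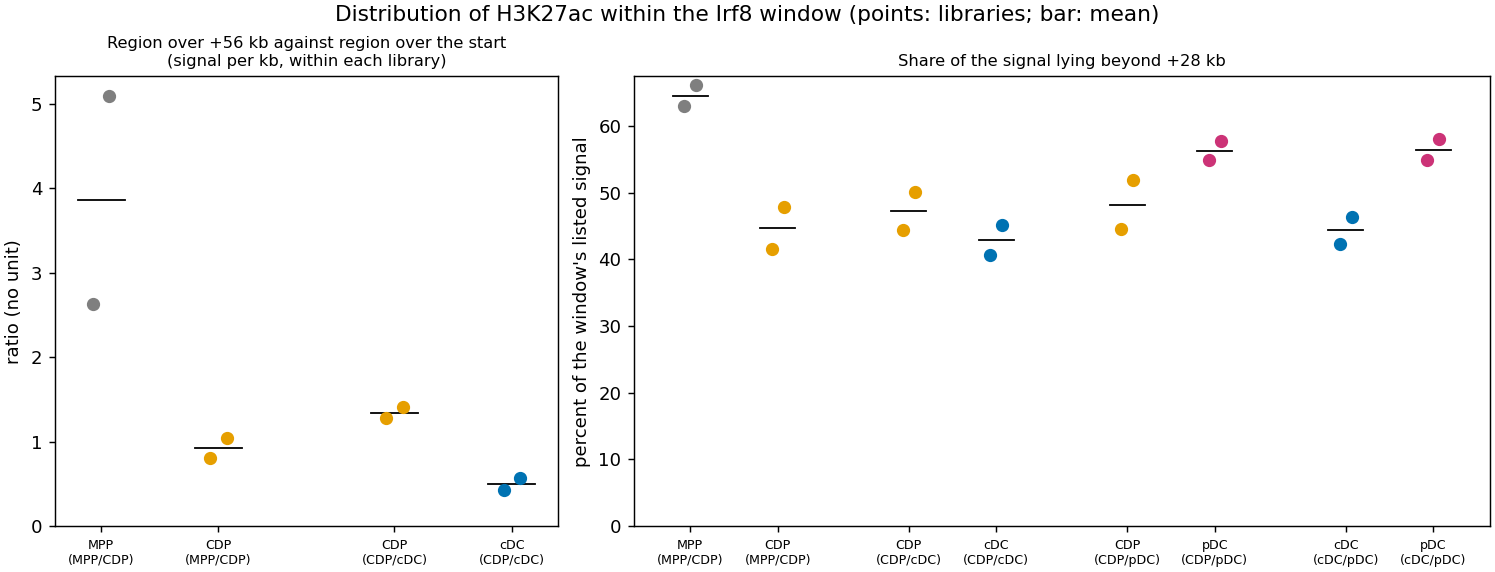
Left, signal per kb of the region over +56 kb divided by that of the region over the Irf8 start; right, percent of the window's listed signal beyond 28 kb; points are single libraries, bars their mean, and the list is given in brackets. The MPP points lie above the CDP points in both panels, and the pDC points lie above those of CDP or cDC of the same list on the right. Region bounds differ between lists.

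The pairwise order of the summed signal was CDP below cDC and both below pDC, while MPP and CDP were not separated beyond their spread. MPP was not listed against cDC or pDC, so these levels were not compared. The lists share libraries of CDP, cDC and pDC, and their agreement on the order is not independent.

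Set beside the rest of the genome in windows of the same 85 kb, the Irf8 window ranked 3rd of 12197 autosomal windows in pDC signal and 1st in listed length in the list of CDP and pDC. Its ratio of pDC to CDP ranked 894th over all these windows and 1st of the 61 with at least 50% of its signal over both groups, a limit that the window passes mainly through its pDC libraries. In the list of CDP and cDC it ranked 68th of 11737 in cDC signal and 683rd in ratio, or 8th among 1628 windows with that share of its signal. In the list of cDC and pDC it ranked 3rd of 11999 in pDC signal and 2275th in ratio, or 4th among 34 such windows. In the list of MPP and CDP it was 4375th of 11296 in CDP signal. In the list of CDP and cDC the Irf8 window also passed the signal limit mainly through cDC, with a mean sum of 28237 against 9341.5 in CDP. In the list of cDC and pDC it did so mainly through pDC, with 123016.5 against 32318 in cDC. The windows were stepped from the bounds of the Irf8 window, so other loci may be cut by window edges. These ranks describe the 8 libraries and carry no test. The 12 other windows with regions in all 4 lists and at least 50% of its pDC signal in the list of CDP and pDC were compared with it over the 4 log2 ratios. The most alike, on chromosome 7 from 87295001 to 87380000, lay 2.10 log2 units away (Euclidean distance) and was 7.02-fold higher in pDC than CDP but 0.997-fold in cDC against CDP. The next lay 2.10 units away on chromosome 13 from 24650001 to 24735000, 2.14 on chromosome 8 from 86190001 to 86275000, 2.16 on chromosome 10 from 59670001 to 59755000 and 2.35 on chromosome 15 from 74715001 to 74800000.

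**Figure D4:**
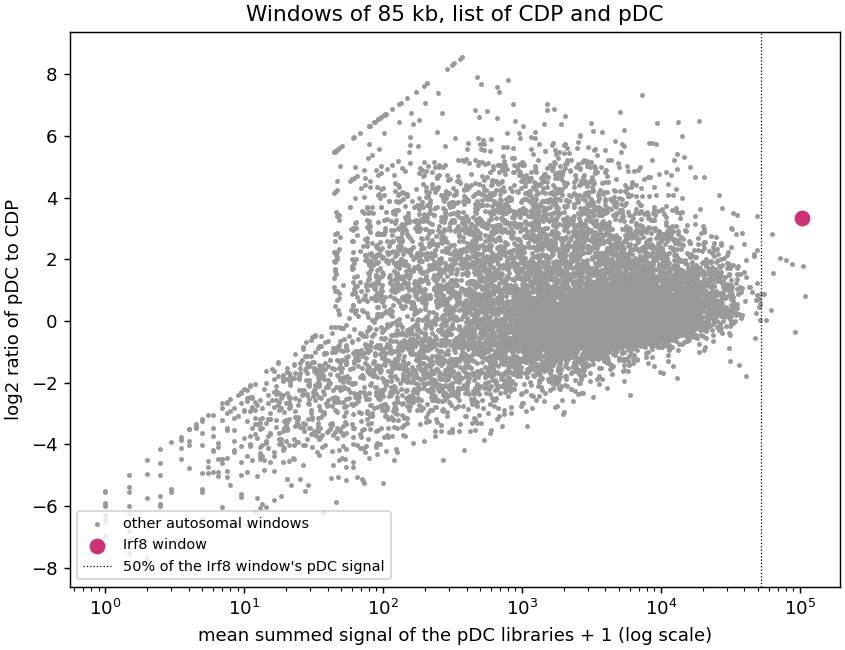
Log2 ratio of pDC to CDP (y axis) against the mean summed pDC signal plus 1 (log x axis) for autosomal windows of 85 kb in the list of CDP and pDC. The Irf8 window, the large point, is 3rd of 12197 in pDC signal and 894th in ratio. Other windows near its pDC signal have lower ratios, but that signal is also the numerator of the ratio.

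On the upstream side, just outside the window, the nearest region in the list of CDP and cDC, from -11.05 to -10.25 kb, had 301 and 290 in CDP, compared with 29 and 66 in cDC. In the list of CDP and pDC, the nearest, from -10.95 to -10.3 kb, had 220 and 222 in CDP, compared with 94 and 144 in pDC. Each cDC and pDC library lay below both CDP libraries there. The difference passed the test for cDC (6.11-fold higher in CDP, adjusted p = 0.000672) and not for pDC (1.85-fold, adjusted p = 0.0934). Downstream, the last region of the window ended at 66.45 kb and the next in any of the lists began at 371.3 kb, which shows only that none of the lists has a region between. Around the -50 element, the region from -53.7 to -50.55 kb had 866 and 988 in CDP, compared with 2986 and 2727 in pDC, and rose 3.08-fold (log2 difference 1.62 ± 0.19 SE, adjusted p = 0.000868). The next region, from -50.25 to -48.9 kb, which covers -50 kb itself, had 1033 and 1458 in CDP, compared with 1888 and 2018 in pDC, and rose 1.57-fold (adjusted p = 0.0492). Against cDC, the region from -51.4 to -49.85 kb had 1663 and 2171 in CDP, compared with 799 and 1482 in cDC, and the log2 difference of -0.80 ± 0.37 did not pass the test (SE, adjusted p = 0.127). The adjacent region from -49.85 to -49.5 kb differed the other way, with 219 and 255 in CDP and 247 and 399 in cDC, overlapping and not called (log2 difference 0.41, adjusted p = 0.61). On either side of these, the regions from -52.15 to -51.8 kb and from -49.5 to -48.9 kb had log2 differences of -0.74 and -0.63 and were not called. Between cDC and pDC, the region from -53.7 to -48.8 kb had 1640 and 3194 in cDC, compared with 6517 and 6192 in pDC. It was 2.63-fold higher in pDC (adjusted p = 0.011). Between MPP and CDP, the region from -51.35 to -49.65 kb had 961 and 909 in MPP, compared with 1450 and 1876 in CDP. It was not called (adjusted p = 0.0514), nor were the regions on either side.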

How the data were processed

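H3K27ac was profiled in 8 libraries, 2 per cell type. Not analysed here were 4 inputs and 4 RNA samples. Per the submitters' processing notes, reads were aligned with BWA 0.6.1 to mm9. THOR, named in the title of the series, calls differential peaks from replicates. The sources used here do not give its settings. The deposited lists give, per region, a direction, 4 signals whose unit is not stated, and −log10 of a p-value. Group order was taken from the list names and checked on regions with identical bounds. In 10 pairs of columns taken as 1 library in different lists, values differed by a near constant factor (0.879 to 1.24, log2 SD up to 0.0587). The smallest SD over the 86 remaining pairs was 0.456. MPP occurs in 1 list only and could not be checked so.

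Members, elements and lists were chosen with earlier results of these data known. limma 3.58.1 (R 4.3.3, mean-variance trend, Benjamini-Hochberg over each list, threshold 0.05) was run on log2(signal + 1) and tested on simulated data. Ratios of single regions add 1 to both means. Distances use the approximate Irf8 start. Regions with each library's value are those over the start and the elements, those with the highest level per kb or extreme ratios, and those in the minority direction; others were added after their values were seen. Lists of marker and pathway genes would need an mm9 annotation and were not used here. Alternatives were pseudocounts of 0.5 and 5, a mean signal of at least 20, equal autosomal totals, median-of-ratios size factors, leaving out each library, and a combined rule (ratio of at least 2, deposited −log10 p of at least 10, groups apart). Tables and plots were made with pandas 2.3.3, numpy 2.4.6 and matplotlib 3.10.9 under Python 3.11.15. Coordinates of regions are 1-based. One motif search in the promoter is not reported here.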

Additional observations from a re-analysis of the deposited data

How the results depend on the processing

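With only 2 libraries per cell type, most changes came from leaving out 1 library. The number of regions called higher ranged over these fits from 0 to 1 for CDP over MPP, 0 to 2 for MPP over CDP, 1 to 6 for cDC over CDP, 3 to 5 for pDC over CDP and 1 to 4 for pDC over cDC. Equal autosomal totals gave 11 regions and median-of-ratios size factors 12 for cDC over CDP. The share of each whole list called in the alternative fits was not counted, so these counts have no background. Without 1 library, the log2 difference of the summed signal ranged from 1.30 to 1.96 for cDC over CDP. It ranged from 2.99 to 3.77 for pDC over CDP and from 1.81 to 2.06 for pDC over cDC. Equal autosomal totals and median-of-ratios size factors lay outside this last range, at 1.45 and 1.73. These scalings gave 1.73 and 1.79 for cDC over CDP and 3.08 and 3.35 for pDC over CDP. For CDP over MPP they gave 0.14 and 0.09, and the range without 1 library was -0.34 to 0.36. Its negative values were -0.21 without the second-listed MPP library and -0.34 without the second-listed CDP library. Of 153 alternative values of the 17 called regions none turned its direction and 25 lost the call, all by leaving out a library. Among the other regions 8 values turned, all by leaving out a library. Over the fits without 1 library, the log2 difference of CDP from MPP ranged from -0.81 to 0.33 at 31.15 kb, -0.16 to 1.39 at 32.9 kb and -1.74 to 0.0645 at 47.95 kb. That of cDC from CDP ranged from -0.0355 to 1.25 at 11.3 kb, -0.13 to 0.97 at 16.1 kb, -0.75 to 0.15 at 16.35 kb, -0.48 to 1.81 at 21.15 kb and -0.18 to 1.08 at 24.25 kb. The cause was not tested. No paired analysis was possible because the values carry no replicate numbers. Levels of elements within a long region are those of the region, so the pDC lists do not resolve the +32, +41 and +56 elements.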
